A study of Rattus norvegicus with 12 samples.

Results

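Muscle fibres hold small stores from which ATP can be remade at once. Creatine kinases move phosphate between phosphocreatine and ADP, adenylate kinase interconverts the adenine nucleotides, and AMP deaminase turns AMP into IMP. Glycogen is built by glycogen synthase and branching enzyme and is broken down by glycogen phosphorylase, which phosphorylase kinase activates. The 10 genes described here encode such enzymes in rat muscle. They are the creatine kinases *Ckm*, *Ckb* and *Ckmt2*, the adenine nucleotide enzymes *Ak1* and *Ampd1*, the glycogen-degrading *Pygm* with the phosphorylase kinase subunits *Phka1* and *Phkg1*, and the glycogen-building *Gys1* and *Gbe1*. They were chosen by name, through the RefSeq accession of each array probe, and were found on 12 of the 45598 probes, which together named 16581 genes.

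L6 myotubes, formed by fusion of a cultured rat skeletal myoblast line, were given 60 µM of a test compound dissolved in DMSO for 24 h after 6 days of differentiation by the labels, while the study's methods give another number of days. The groups were GR24, a synthetic strigolactone, the stilbenes pinosylvin and resveratrol, and DMSO alone as the control. Each group had 3 Agilent 1-colour arrays from 3 independent experiments on 1 batch of cells, so the spread between arrays is that between treatments of the same cells. Of the 58717 spots of an array, 58.0% to 64.3% were well above background and 0 were saturated. Values are log2 intensities relative to the 75th percentile of the array, and differences between groups are taken within a probe, since levels of different probes are not comparable. A difference was called when its limma adjusted p was under 0.05 over 24278 tested probes. A probe was tested if some group had it well above background on each of its 3 arrays, and the precision is limited by the number of arrays.

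Of the 10 genes, 8 were tested and 7 of these were well above background on all 12 arrays. *Ckb*, the brain-type cytosolic creatine kinase, was printed on 10 spots per array and was well above background on 0 of 12 arrays. *Phkg1*, the catalytic subunit of muscle phosphorylase kinase, was well above background on 1 of 12 arrays, the second with resveratrol, where it had -4.20 against -7.30 and -7.48 on the other arrays of that group. Neither gene has a fold change here.

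With GR24, 4 of the 8 tested genes were lower than in the control and 3 were higher, where 25.5% of all tested probes were lower and 31.5% were higher. The genes that fell were *Ckm*, *Ckmt2*, *Ampd1* and *Pygm*, and those that rose were *Ak1*, *Phka1* and *Gys1*. The median log2 fold change of the 8 genes was -0.32, beside 0.03 for all tested probes. With resveratrol the same 4 named genes were lower and 1, *Gbe1*, was higher, against a background of 8.99% lower and 7.99% higher (median -0.25, beside 0.01). With pinosylvin 2 genes, *Ampd1* and *Gys1*, were higher and 0 were lower, against 8.28% and 8.27% (median 0.23, beside 0.05). With the replicate number as a block, 4 genes were higher with pinosylvin by limma, *Ckm* and *Ak1* being added, and the probes called in either direction were 6946 (28.6%) instead of 4019. The comparisons with the control share its 3 arrays. In RNA from whole cultures, fewer cells that express a gene and less RNA of it per cell cannot be told apart.

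**Figure D1:**
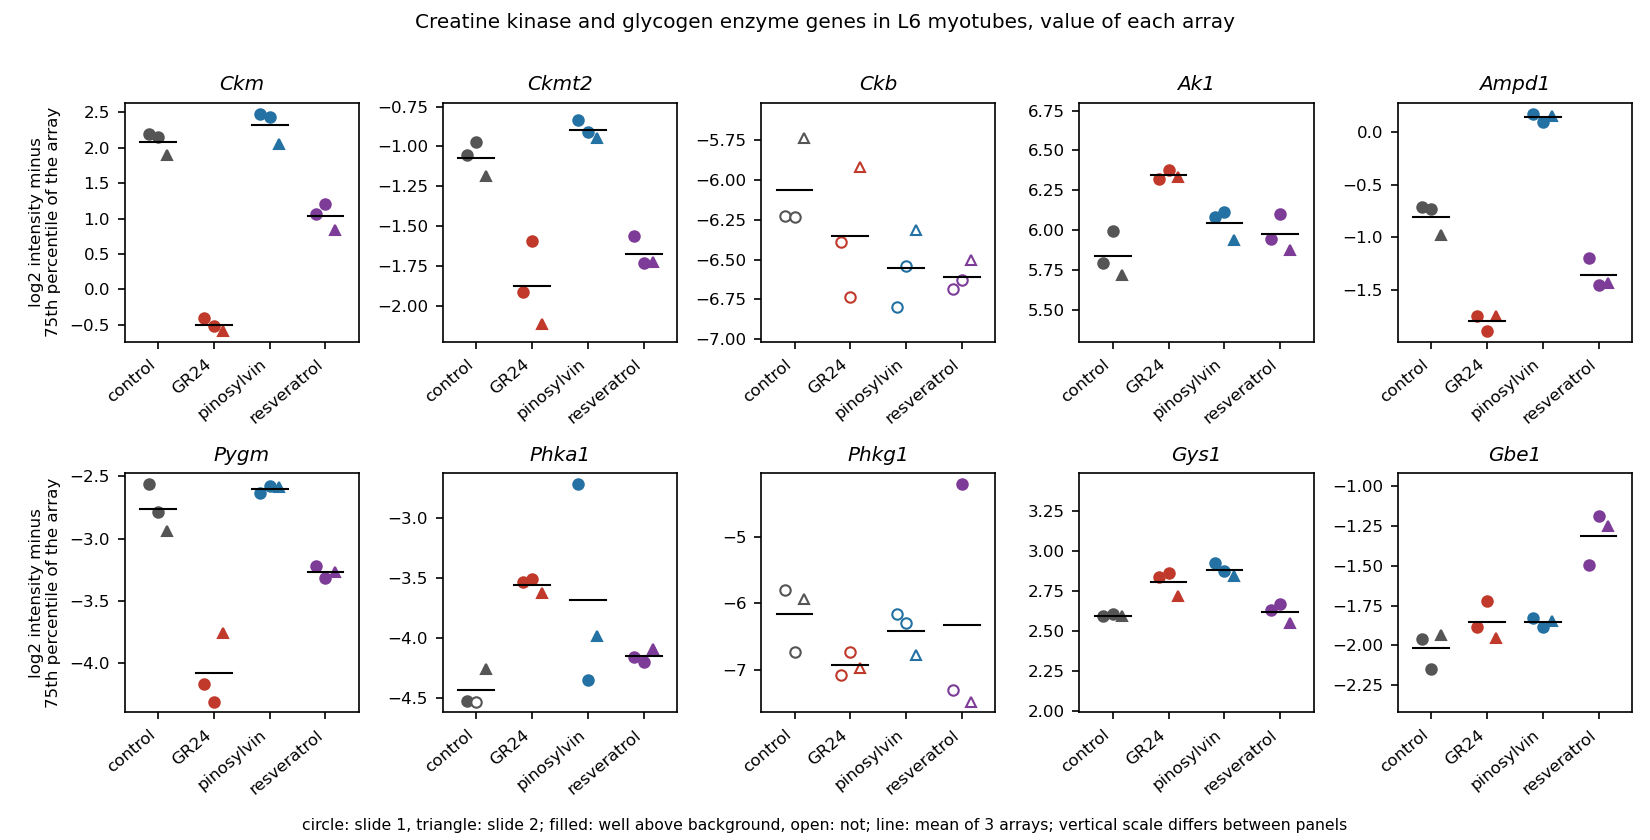
Log2 intensity minus the 75th percentile of the array (vertical axis, own scale in each panel) of the 10 genes on every array of the 4 groups (horizontal axis). Circles are arrays of slide 1 and triangles of slide 2, filled where the probe was well above background, and each line is the mean of 3 arrays. For *Ckm* the GR24 arrays lie between -0.59 and -0.41 and the control arrays between 1.89 and 2.19, while *Ckb* has open symbols throughout.

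*Ckm*, the cytosolic creatine kinase of muscle, had log2 intensities of 2.19, 2.15 and 1.89 on the control arrays and of -0.41, -0.51 and -0.59 on the GR24 arrays. They were 2.48, 2.44 and 2.05 with pinosylvin and 1.07, 1.21 and 0.84 with resveratrol. Every GR24 array lay below all other arrays and every resveratrol array lay below the control and pinosylvin arrays, while the control and pinosylvin arrays overlapped. *Ckm* was 5.99-fold lower with GR24, a log2 fold change of -2.58 (SE 0.14, 95% interval -2.89 to -2.28, limma adjusted p = 9.64e-08). Within slides the log2 fold change of *Ckm* with GR24 was -2.63 on slide 1 and -2.48 on slide 2. With resveratrol it was 2.05-fold lower, a log2 fold change of -1.04 (SE 0.14, limma adjusted p = 5.97e-04), with -1.03 and -1.05 on the slides. With pinosylvin the log2 fold change of *Ckm* was 0.25 (95% interval -0.06 to 0.55, limma adjusted p = 0.275), not past the threshold, and with the replicate number as a block the limma adjusted p was 0.0342. The level of *Ckm* was therefore ordered pinosylvin, control, resveratrol and GR24, and only the first pair of neighbours was not separated by the test without a block.

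*Ckmt2*, the sarcomeric creatine kinase of mitochondria, had -1.05, -0.97 and -1.18 on the control arrays and -1.91, -1.59 and -2.12 with GR24. The pinosylvin arrays gave -0.84, -0.91 and -0.95, and the resveratrol arrays -1.56, -1.73 and -1.72. All GR24 and resveratrol arrays lay below all control and pinosylvin arrays, and GR24 and resveratrol overlapped. The log2 fold change was -0.80 with GR24 (SE 0.12, 95% interval -1.07 to -0.53, limma adjusted p = 2.13e-04), a 1.75-fold decrease, with -0.74 on slide 1 and -0.93 on slide 2. With resveratrol it was -0.60 (SE 0.12, limma adjusted p = 0.00673), with -0.63 and -0.54 on the slides. With pinosylvin it was 0.17 (95% interval -0.09 to 0.44, limma adjusted p = 0.390), and the 3 pinosylvin arrays lay above the 3 control arrays. Another *Ckmt2* probe gave -0.95 with GR24, -0.52 with resveratrol and 0.18 with pinosylvin, and its pinosylvin and control arrays overlapped. The probes differed in the direct comparison of GR24 with resveratrol, where the first gave -0.20 (limma adjusted p = 0.198) and the other -0.44 (limma adjusted p = 0.00335).

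*Ampd1*, the muscle isoform of AMP deaminase, had -0.72, -0.74 and -0.98 on the control arrays and -1.75, -1.89 and -1.75 with GR24. It had 0.18, 0.10 and 0.16 with pinosylvin and -1.20, -1.46 and -1.44 with resveratrol. The 4 groups did not overlap, in the order pinosylvin, control, resveratrol and GR24, and each pair of neighbours was separated by the test. *Ampd1* was 1.94-fold higher with pinosylvin, a log2 fold change of 0.95 (SE 0.09, 95% interval 0.74 to 1.16, limma adjusted p = 7.36e-05), with 0.86 on slide 1 and 1.13 on slide 2. With GR24 *Ampd1* was 1.98-fold lower at -0.99 (SE 0.09, 95% interval -1.20 to -0.78, limma adjusted p = 7.62e-06), with -1.10 and -0.78 on the slides. With resveratrol it was -0.55 (SE 0.09, limma adjusted p = 0.00270), with -0.60 and -0.46 on the slides.

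*Ak1*, the cytosolic adenylate kinase, went the other way with GR24. Its log2 intensity was 5.79, 5.99 and 5.72 on the control arrays and 6.32, 6.38 and 6.33 with GR24. It was 6.08, 6.11 and 5.94 with pinosylvin and 5.95, 6.10 and 5.87 with resveratrol, and the GR24 arrays lay above all others. The log2 fold change with GR24 was 0.51 (SE 0.09, 95% interval 0.31 to 0.71, limma adjusted p = 6.02e-04), with 0.46 on slide 1 and 0.61 on slide 2, and another *Ak1* probe gave 0.79 (limma adjusted p = 2.07e-04). With pinosylvin *Ak1* had 0.21 (95% interval 0.01 to 0.41, limma adjusted p = 0.147, and 0.0246 with the replicate number as a block). With resveratrol it had 0.14 (95% interval -0.06 to 0.34, limma adjusted p = 0.356). The other probe gave 0.34 with resveratrol (limma adjusted p = 0.0782), not past the threshold, with its resveratrol arrays above its control arrays.

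*Pygm*, the muscle glycogen phosphorylase, had -2.56, -2.78 and -2.93 on the control arrays and -4.17, -4.31 and -3.76 with GR24. The pinosylvin arrays gave -2.64, -2.57 and -2.58, and the resveratrol arrays -3.22, -3.32 and -3.27. As for *Ckm*, the GR24 arrays were lowest, the resveratrol arrays lay between them and the control, and pinosylvin overlapped the control. *Pygm* was 2.49-fold lower with GR24, a log2 fold change of -1.32 (SE 0.13, 95% interval -1.62 to -1.02, limma adjusted p = 1.28e-05), with -1.56 on slide 1 and -0.82 on slide 2. The size differed with the processing, and *Pygm* had -0.85 in the deposited table and -0.69 after normexp correction with the 75th percentile, both past the threshold. With resveratrol *Pygm* had -0.51 (SE 0.13, 95% interval -0.81 to -0.21, limma adjusted p = 0.0264), with -0.60 and -0.34 on the slides, -0.32 in the deposited table and -0.32 after normexp with the 75th percentile. That call was lost without control replicate 1 or 2 or without resveratrol replicate 1, 2 or 3, with limma adjusted p of 0.0593 to 0.0983 for *Pygm*, and with no filter on dim probes (0.0761). With pinosylvin *Pygm* had 0.16 (95% interval -0.14 to 0.46, limma adjusted p = 0.484).

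*Phka1*, the muscle regulatory alpha subunit of phosphorylase kinase, lay near background, with -4.53, -4.53 and -4.26 on the control arrays, of which 2 were well above background. It had -3.53, -3.51 and -3.62 with GR24 and -4.16, -4.20 and -4.10 with resveratrol. The pinosylvin arrays gave -2.72, -4.36 and -3.99 and so had a mean of -3.69 ± 0.86 (SD, n = 3), with the first array apart from the others. The log2 fold change with GR24 was 0.88 (SE 0.32, 95% interval 0.17 to 1.60, limma adjusted p = 0.0368), with all GR24 arrays above all control arrays. This call of *Phka1* was lost when any 1 of the 6 arrays was left out, with limma adjusted p of 0.0504 to 0.0906, on slide 1 alone (1.01, adjusted p = 0.108), with no filter (0.0797), in the deposited table (0.57, adjusted p = 0.0586) and after normexp with the 75th percentile (0.32, adjusted p = 0.0722). The lowest limma adjusted p of this comparison over the alternatives was 6.59e-04. *Phka1* had 0.75 with pinosylvin (limma adjusted p = 0.147), but 0.27 without pinosylvin replicate 1 (limma adjusted p = 0.211) and 1.09 without replicate 2 (0.0391), so that the value rests on single arrays. It had 0.29 with resveratrol (limma adjusted p = 0.639).

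*Gys1*, the muscle glycogen synthase, was printed on 10 spots per array, whose SD within an array was 0.07 to 0.11 on the log2 scale. It had 2.59, 2.61 and 2.59 on the control arrays, 2.84, 2.86 and 2.72 with GR24, 2.93, 2.88 and 2.84 with pinosylvin and 2.63, 2.67 and 2.55 with resveratrol. The GR24 and pinosylvin arrays lay above the control and resveratrol arrays, and these pairs overlapped within themselves. The log2 fold change was 0.29 with pinosylvin (SE 0.06, 95% interval 0.15 to 0.42, limma adjusted p = 0.0102) and 0.21 with GR24 (SE 0.06, 95% interval 0.07 to 0.35, limma adjusted p = 0.0132). With resveratrol it was 0.02 (95% interval -0.12 to 0.16, limma adjusted p = 0.896). On slide 1 and slide 2 *Gys1* had 0.30 and 0.25 with pinosylvin, and 0.25 and 0.13 with GR24. Both calls of *Gys1* were lost with no filter on dim probes (0.0586 for pinosylvin and 0.0604 for GR24) and in limma fits of only the 6 arrays compared (0.0510 and 0.0544), and that for GR24 also without GR24 replicate 1 (0.0503) or 2 (0.0515).

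*Gbe1*, the glycogen branching enzyme, was the gene that rose with resveratrol. It had -1.96, -2.15 and -1.94 on the control arrays and -1.50, -1.19 and -1.25 with resveratrol, above all other arrays. It had -1.88, -1.72 and -1.95 with GR24 and -1.83, -1.89 and -1.84 with pinosylvin, and these groups overlapped each other, with the pinosylvin arrays above the control arrays. The log2 fold change with resveratrol was 0.70 (SE 0.10, 95% interval 0.49 to 0.92, limma adjusted p = 7.96e-04), a 1.63-fold increase, with 0.71 on slide 1 and 0.69 on slide 2. *Gbe1* had 0.16 with GR24 (95% interval -0.05 to 0.38, limma adjusted p = 0.183) and 0.16 with pinosylvin (95% interval -0.05 to 0.38, limma adjusted p = 0.312). With the percentile taken over all spots the value for GR24 was 0.26 (limma adjusted p = 0.0426), a call that no other scaling gave.

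**Figure D2:**
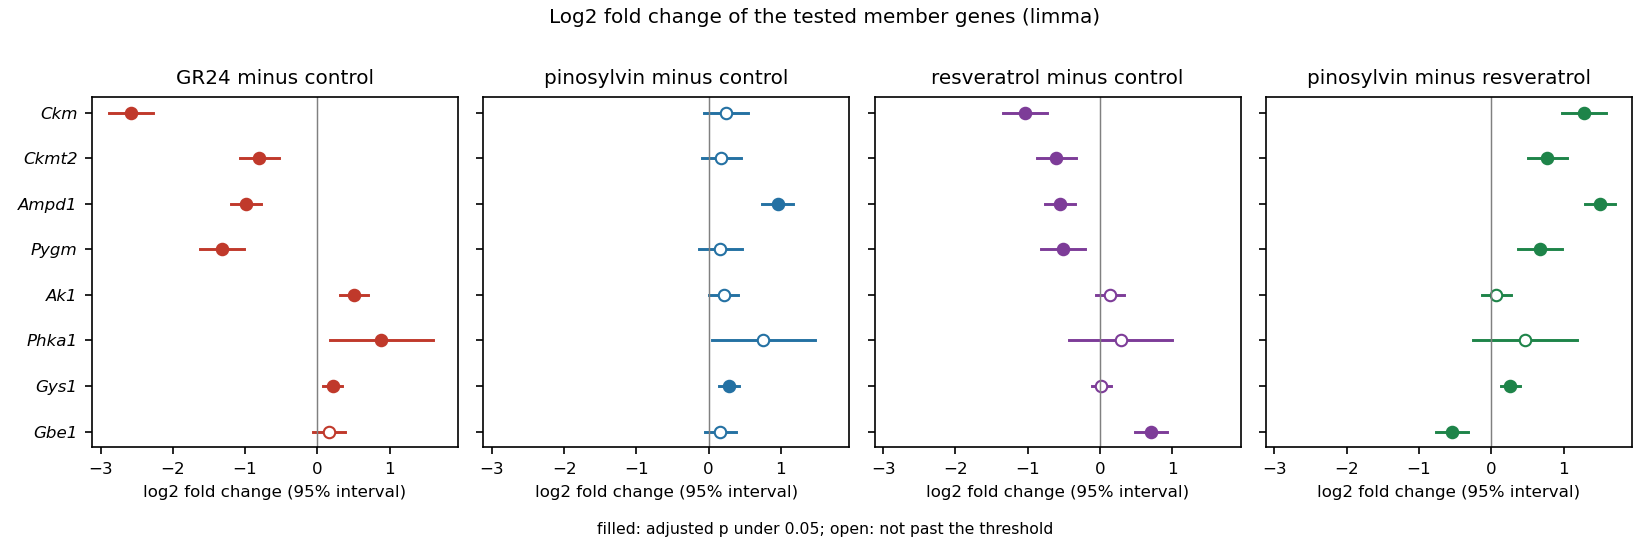
Log2 fold change (horizontal axis) of the 8 tested genes (vertical axis) in 4 comparisons, with 95% intervals from limma. Filled points had an adjusted p under 0.05. *Ckm*, *Ckmt2*, *Ampd1* and *Pygm* are lower with GR24 (-2.58 to -0.80) and with resveratrol (-1.04 to -0.51), and all 4 are higher with pinosylvin than with resveratrol (0.67 to 1.51).

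Pinosylvin and resveratrol differ by a hydroxyl group, which resveratrol carries on the ring that has none in pinosylvin, and were given at the same dose for the same time. In the direct comparison, 5 of the 8 tested genes were higher with pinosylvin and 1 was lower, where 7.68% of all tested probes were higher and 6.85% were lower. The median log2 fold change of the 8 genes was 0.57, beside 0.02 for all tested probes. *Ampd1* was 2.84-fold higher with pinosylvin than with resveratrol, a log2 fold change of 1.51 (SE 0.09, 95% interval 1.30 to 1.72, limma adjusted p = 1.94e-05). *Ckm* was 2.43-fold higher at 1.28 (SE 0.14, 95% interval 0.98 to 1.59, limma adjusted p = 2.10e-04). *Ckmt2* (0.78, limma adjusted p = 0.00206) and *Pygm* (0.67, limma adjusted p = 0.00797) were also higher, and *Gbe1* was lower (-0.54, limma adjusted p = 0.00448). For these 5 genes the arrays of the stilbenes did not overlap, and the slides gave values of the same sign. *Pygm* had 0.44 after normexp with the 75th percentile, still past the threshold. *Gys1* had 0.27 (limma adjusted p = 0.0171), a call lost without pinosylvin replicate 1 (0.0633) or 2 (0.0558), without resveratrol replicate 3 (0.0702), with no filter (0.0872) and with only the 6 arrays (0.0662). The genes that were not separated were *Ak1*, with an interval of -0.13 to 0.27, and *Phka1*, with an interval of -0.25 to 1.18.

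GR24 was compared with each stilbene in the same limma fit. Against pinosylvin, 4 genes were lower with GR24 and 1 was higher, where 26.8% of probes were lower and 29.6% were higher. *Ckm* had a log2 fold change of -2.83 (limma adjusted p = 6.40e-08), *Ampd1* -1.94 (6.33e-08), *Pygm* -1.48 (5.99e-06) and *Ckmt2* -0.98 (5.60e-05), and *Pygm* had -0.80 after normexp with the 75th percentile and -0.74 after normexp with quantile normalization, both past the threshold. *Ak1* had 0.30 (limma adjusted p = 0.0147), a call lost on slide 1 alone (0.0522) and without pinosylvin replicate 3 (0.0567), and *Ak1* had 0.48 with quantile normalization. The other *Ak1* probe gave 0.53 (limma adjusted p = 0.00303). *Gys1* (95% interval -0.21 to 0.06), *Gbe1* (-0.22 to 0.22) and *Phka1* (-0.58 to 0.84) did not pass, though without pinosylvin replicate 1 *Phka1* had 0.62 (limma adjusted p = 0.00235). Against resveratrol, 4 genes were lower with GR24 and 2 were higher, where 23.9% of probes were lower and 27.4% were higher. *Ckm* had -1.54 (limma adjusted p = 6.44e-06), *Pygm* -0.81 (5.34e-04), *Gbe1* -0.54 (8.89e-04) and *Ampd1* -0.43 (0.00286), while *Ak1* had 0.37 (0.00520) and *Gys1* 0.19 (0.0240). The call of *Gys1* was lost without GR24 replicate 1 or 2 or resveratrol replicate 3, with limma adjusted p of 0.0820 to 0.0934, with no filter (0.0956) and with only the 6 arrays (0.0814), and *Gys1* had 0.30 with the percentile over all spots. *Pygm* had -0.36 after normexp with the 75th percentile and -0.48 on slide 2. *Phka1* had 0.60 (95% interval -0.12 to 1.31, limma adjusted p = 0.151, and 9.24e-04 with only the 6 arrays). *Ckmt2* was past the threshold with the mean of its probes (-0.32, limma adjusted p = 0.0135) or without GR24 replicate 2 (-0.34, limma adjusted p = 0.0169).

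A list of 16 further genes of creatine and adenine nucleotide metabolism had 15 on the array and 11 tested. With GR24, 8 of the 11 rose and 1 fell, where 31.5% of all tested probes rose and 25.5% fell (median log2 fold change 0.53, beside 0.03 for all tested probes). *Ampd3*, another AMP deaminase, had -3.99, -4.06 and -4.44 on the control arrays and -1.55, -1.72 and -1.58 with GR24, without overlap. Its log2 fold change was 2.55 (SE 0.14, limma adjusted p = 1.43e-07), opposite to that of *Ampd1*, and 1.52 after normexp with the 75th percentile. *Ampd2* rose as well (0.93, limma adjusted p = 2.83e-04). *Ak6*, a nuclear adenylate kinase, rose 2.83-fold (limma adjusted p = 3.44e-07), while *Ak3*, the GTP:AMP phosphotransferase of the mitochondrial matrix, fell by 0.65 (limma adjusted p = 1.06e-04). *Slc6a8*, the creatine transporter, had 0.60 (1.70e-04 by limma) and *Gamt*, which makes creatine from guanidinoacetate, had 0.53 (1.97e-04 by limma). *Adss2* (0.44) and *Adsl* (0.41) were also past the threshold. *Gatm*, *Ak5*, *Nt5c1a* and *Ada* were not well above background on any array.

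With the stilbenes fewer genes of this list were called, as were fewer of all tested probes (8.28% higher and 8.27% lower with pinosylvin, 7.99% and 8.99% with resveratrol). With pinosylvin 0 rose and 1 fell, *Gamt* (-0.37, limma adjusted p = 0.00928, and 0.0669 with only the 6 arrays), and with the replicate number as a block 3 rose and 2 fell of the 11, where 28.6% of all tested probes were called. With resveratrol *Ampd3* (1.38, limma adjusted p = 1.39e-04) and *Slc6a8* (0.45, limma adjusted p = 0.00570) rose and *Gamt* fell (-0.60, limma adjusted p = 5.88e-04). *Ampd3* had -2.77, -2.80 and -2.79 on the resveratrol arrays, between the control and GR24 arrays, and 0.68 after normexp with the 75th percentile. *Gamt* thus rose with GR24 and fell with both stilbenes, and it was higher with GR24 than with pinosylvin (0.91, limma adjusted p = 4.46e-06) and resveratrol (1.13, limma adjusted p = 1.12e-06). Between the stilbenes, *Ampd3* was the gene called, lower with pinosylvin (-1.03, limma adjusted p = 0.00106, and -0.48 after normexp with the 75th percentile), and with the block 4 of the 11 genes were called, beside 26.0% of all tested probes. The medians of the list were 0.06 with pinosylvin and -0.09 with resveratrol, beside 0.05 and 0.01 for all tested probes.

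A list of 30 further glycogen genes had 28 on the array and 21 tested. With GR24, 8 rose, 7 fell and 6 did not pass, where 31.5% of all tested probes rose and 25.5% fell (median log2 fold change -0.06, beside 0.03). *Nhlrc1*, the ubiquitin ligase malin, rose by 1.04 (SE 0.09, limma adjusted p = 2.51e-06), from -2.47, -2.38 and -2.62 on the control arrays to -1.40, -1.49 and -1.46. Other phosphorylase kinase subunits rose, *Phkb* with 0.68 (limma adjusted p = 2.11e-04) and *Phkg2*, the catalytic subunit known from liver, with 0.67 (0.00329). *Calm3*, whose product calmodulin is a further subunit of that kinase, fell (-0.44, limma adjusted p = 2.63e-04). *Gaa*, the lysosomal alpha-glucosidase, had 0.79 (limma adjusted p = 8.72e-04), *Gsk3b*, a kinase that inhibits glycogen synthase, 0.51 (3.43e-04), *Pygb*, the brain phosphorylase, 0.42 (3.96e-04), and *Pgm1*, a phosphoglucomutase, -0.35 (0.0105). *Gsk3b* had 1.09 with the mean over its probes and *Calm3* -0.29 in the deposited table. *Gys2*, *Pygl*, *Phka2*, *Ppp1r3a*, *Ppp1r3b* and *Ppp1r3d* were not well above background on any array.

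With pinosylvin, 5 glycogen genes of that list rose and 3 fell, and with resveratrol 4 rose and 1 fell, out of 21 tested, beside 8.28% and 8.27% and beside 7.99% and 8.99% of all tested probes. With the replicate number as a block, 6 rose and 4 fell with pinosylvin, and 5 rose and 4 fell with resveratrol, out of 21, where 28.6% and 27.9% of all tested probes were called with that block. Named after their values were seen, the genes that rose with pinosylvin were *Stbd1* (0.74), *Gaa* (0.67), *Pgm1* (0.55), *Ppp1r3c* (0.30) and *Gyg1* (0.27), and among those that fell were *Calm2* (-0.32) and *Pgm2* (-0.24). With resveratrol *Stbd1* (0.70), *Gyg1* (0.46), *Pygb* (0.29) and *Ppp1r3c* (0.24) rose and *Pgm2* (-0.24) fell. The call of *Pygb* with resveratrol was lost without resveratrol replicate 1 (limma adjusted p 0.0622) or 2 (0.0523), without control replicate 2 (0.0552), with no filter (0.0701) and with only the 6 arrays (0.0846). Stbd1 protein binds glycogen and glycogenin, from *Gyg1*, primes it. *Pgm1* was the gene that was higher with pinosylvin than with resveratrol (0.53, limma adjusted p = 0.00491), and *Pygb* was lower (-0.30, limma adjusted p = 0.0158). Between the stilbenes the call of *Pygb* was lost without pinosylvin replicate 2 (0.0537) or resveratrol replicate 1 (0.0583) or 2 (0.0557), with no filter (0.0748) and with only the 6 arrays (0.0679). With the block, 4 of the 21 genes were called between the stilbenes, beside 26.0% of all tested probes.

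**Figure D3:**
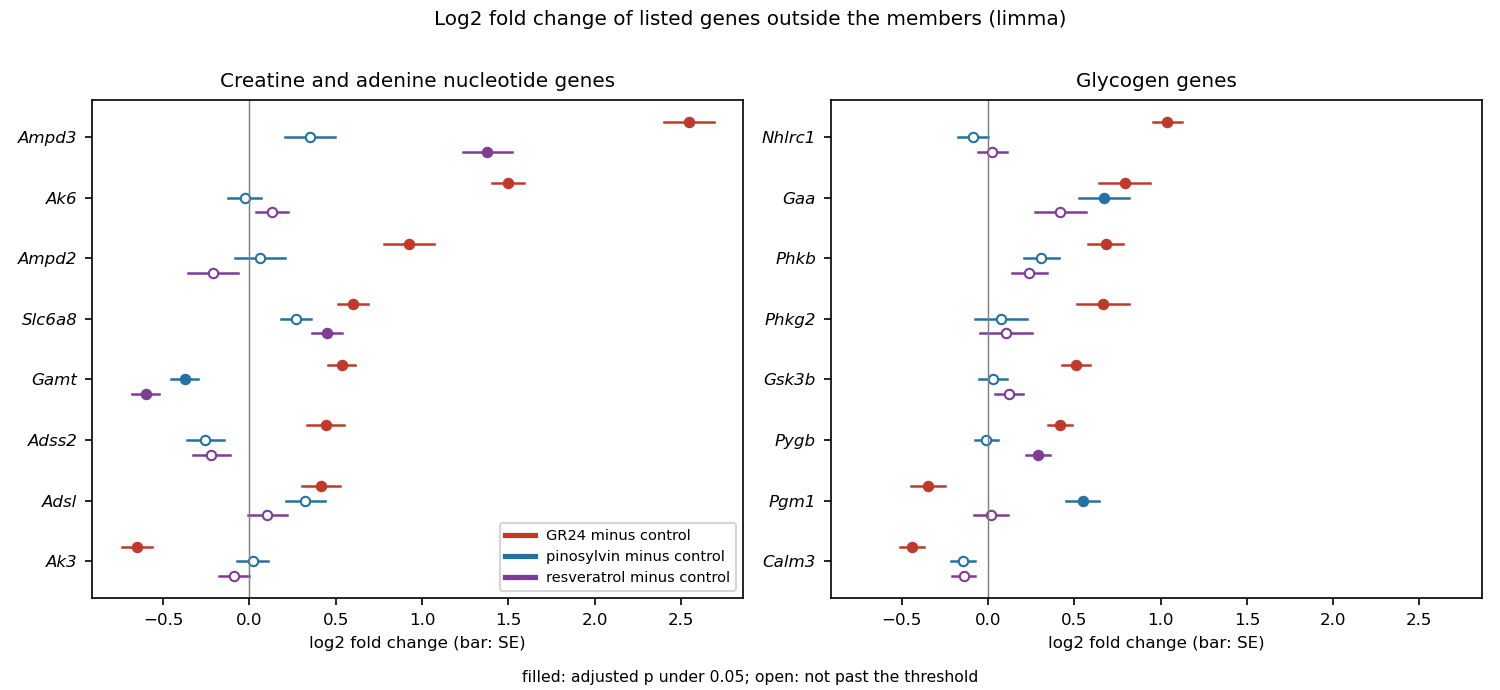
Log2 fold change against the control (horizontal axis, bars are the SE from limma) of 16 genes of the creatine and adenine nucleotide list and of the glycogen list (vertical axis), for each compound. Filled points had an adjusted p under 0.05. *Ampd3* is highest with GR24 (2.55) and resveratrol (1.38), and *Ak3* is lowest with GR24 (-0.65).

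Markers of the cultured cells were read in the same comparisons. Of 16 myotube markers 12 were on the array, all well above background on the control arrays, and the *Myh3* probe had the highest signal, which does not rank the RNA of different genes. With GR24, 9 of the 12 fell and 0 rose, where 25.5% of all tested probes fell and 31.5% rose (median log2 fold change -1.36), among them *Myog* (-5.83) and *Acta1* (-3.88), while *Des* (-0.09), *Mb* (-0.19) and *Chrna1* (-0.56) did not pass. The summed level of the myotube markers, in multiples of the 75th percentile, was 1032, 1117 and 962 on the control arrays, 423, 411 and 402 with GR24, 1136, 1177 and 1112 with pinosylvin and 845, 849 and 812 with resveratrol. With resveratrol 6 of the 12 fell and 0 rose (median -0.28), beside 8.99% and 7.99% of all tested probes. With pinosylvin 3 rose and 1 fell (median 0.23), beside 8.28% and 8.27%. Between the stilbenes, 9 of the 12 myotube markers were higher with pinosylvin and 0 were lower (median 0.44), where 7.68% of all tested probes were higher and 6.85% were lower. The GR24 and resveratrol sums lay below the control, as the levels of *Ckm*, *Ckmt2*, *Ampd1* and *Pygm* did, and those of pinosylvin lay above those of resveratrol, as for these genes. The part of these markers in the results was not tested.

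Of 5 markers of cycling cells 4 were on the array, and all 4 fell with each compound, where 25.5% of all tested probes fell with GR24, 8.27% with pinosylvin and 8.99% with resveratrol, with median log2 fold changes of -2.82 with GR24, -1.70 with pinosylvin and -0.89 with resveratrol. All 4 were also lower with pinosylvin than with resveratrol (median -0.78), where 6.85% of all tested probes were lower. Their summed level, with the highest signal from the *Cdk1* probe, was 62.0, 59.0 and 56.2 on the control arrays, 8.58, 8.78 and 7.87 with GR24, 21, 21.6 and 19.5 with pinosylvin and 32.3, 35.3 and 31.8 with resveratrol. Of 6 fibroblast markers, with the highest signal from the *Vim* probe, 5 fell and 1 rose with GR24, 3 fell and 1 rose with pinosylvin, and 2 fell and 1 rose with resveratrol, where 31.5%, 8.28% and 7.99% of all tested probes rose. Their summed level was 589, 592 and 550 on the control arrays, 326, 325 and 288 with GR24, 473, 494 and 498 with pinosylvin and 472, 487 and 477 with resveratrol. Of 7 myoblast markers, with the highest signal from the *Myf5* probe, 6 were tested, and with GR24 2 rose, *Id2* (1.22) and *Hes1* (0.65), and 2 fell, *Myf5* (-0.88) and *Myod1*, near the 31.5% and 25.5% of all tested probes. No GR24 array had *Myod1* well above background, so its fall has a lower bound of 3.21-fold, for which each GR24 array was given the dimmest signal that counted as detected there if its own was dimmer. With pinosylvin *Hes1* rose (0.55) and *Id1* (-0.77) and *Id2* (-0.33) fell, beside 8.28% and 8.27% of all tested probes. With resveratrol *Hes1* rose (0.69) and *Myod1*, well above background on 2 of the arrays, fell (-1.11), beside 7.99% and 8.99%. *Myod1* was higher with pinosylvin than with resveratrol (0.98), and *Id1* (-0.73) and *Id2* (-0.33) were lower, beside 7.68% and 6.85% of all tested probes. The summed level of the myoblast markers was 6.60, 6.33 and 7.04 on the control arrays, 5.18, 5.29 and 5.07 with GR24, 6.23, 5.71 and 5.75 with pinosylvin and 6.09, 7.29 and 6.88 with resveratrol. Of 4 cardiac markers 2 were tested, and with GR24 *Myh6* fell (-1.69) and *Tnni3*, undetected there, has a lower bound of 7.19-fold for its fall. With pinosylvin *Myh6* rose (0.59) and *Tnni3* fell (-1.32), and with resveratrol *Tnni3* fell (-1.55) and *Myh6* did not pass (-0.16). Of the adipocyte markers only *Cfd* was tested, which rose with pinosylvin (0.41) and did not pass with GR24 (-0.05) or resveratrol (0.03), and it was higher with pinosylvin than with resveratrol (0.39), while *Adipoq* and *Lep* were not well above background on any array. Neither hepatocyte marker was tested, and *Alb* was well above background on 0 arrays. Of the leukocyte markers *Cd68* rose with GR24 (2.67), and *Ptprc* was well above background on 0 arrays of any group. Whether these markers bear on the enzyme genes was not tested.

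The levels of *Ckm* over the 12 arrays were compared with those of 9814 other named genes that were well above background on all of them. The 5 most alike by Pearson's r were *Cdkn1c* (0.996), *Srpx2* (0.996), *Ccn4* (0.996), *Mical1* (0.995) and *Hrc* (0.994). Their log2 fold changes with GR24 were -2.71, -1.55, -1.24, -1.64 and -1.33, and with resveratrol -1.17, -0.53, -0.53, -0.60 and -0.55. Among the enzyme genes, r with *Ckm* was 0.963 for *Pygm*, 0.905 for *Ckmt2*, 0.877 for *Ampd1*, -0.073 for *Gys1*, -0.196 for *Gbe1*, -0.326 for *Phka1* and -0.705 for *Ak1*. Arrays of a group share their treatment, so r describes the pattern over the 4 groups and has no p here. No such genes were sought for *Ckb*, whose signal was at background.

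For 9 of the 10 genes, all but *Ak1*, RefSeq promoter windows of the rat assembly GRCr8 were matched by symbol. Each window has 300 bases, 250 before the start of the gene and 50 from it on. The E-box letters CANNTG, known as the motif of myogenic bHLH factors, were found in 8 of the 9 windows, all but that of *Ckb*, and in 72.1% of all 33469 windows. TATAAA, on either strand, was found in 3 of the 9 (*Ckb*, *Ampd1* and *Gbe1*) and in 14.2% of all windows. Of the MEF2-type cores, TATTTATA, whose reverse strand includes the TATAAA letters, was found on either strand in 2 of the 9 (*Ckb* and *Ampd1*) and in 1.80% of all windows, and TATTTTTA in 0 of the 9 and in 2.69% of all. These are matches of letters and show no binding. The 4 windows below belong to the genes that fell with both GR24 and resveratrol, and capitals mark CANNTG, 3 times in *Ckm*, 2 in *Ckmt2*, 2 in *Ampd1* and 4 in *Pygm*. They lie at chr1:88189211-88189510 on the plus strand (*Ckm*), chr2:24845462-24845761 on the minus strand (*Ckmt2*), chr2:193287082-193287381 on the plus strand (*Ampd1*) and chr1:213119555-213119854 on the plus strand (*Pygm*), and each is written 5′ to 3′ along the gene.
Ckm: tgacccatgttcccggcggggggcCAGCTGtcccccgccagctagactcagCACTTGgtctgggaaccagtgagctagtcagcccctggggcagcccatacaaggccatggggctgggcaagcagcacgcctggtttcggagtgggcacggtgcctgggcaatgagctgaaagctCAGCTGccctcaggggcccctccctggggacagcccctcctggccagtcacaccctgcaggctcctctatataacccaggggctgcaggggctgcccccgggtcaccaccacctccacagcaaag
Ckmt2: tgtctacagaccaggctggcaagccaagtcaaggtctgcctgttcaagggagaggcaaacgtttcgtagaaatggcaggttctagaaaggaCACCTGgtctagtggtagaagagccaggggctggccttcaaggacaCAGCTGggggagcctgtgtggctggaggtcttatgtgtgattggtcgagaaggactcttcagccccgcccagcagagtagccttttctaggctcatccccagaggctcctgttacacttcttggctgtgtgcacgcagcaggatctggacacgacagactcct
Ampd1: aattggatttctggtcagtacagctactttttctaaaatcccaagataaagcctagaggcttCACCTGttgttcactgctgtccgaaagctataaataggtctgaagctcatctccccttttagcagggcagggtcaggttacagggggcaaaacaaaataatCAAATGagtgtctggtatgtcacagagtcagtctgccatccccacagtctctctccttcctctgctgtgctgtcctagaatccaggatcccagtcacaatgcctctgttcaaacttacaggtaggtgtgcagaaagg
Pygm: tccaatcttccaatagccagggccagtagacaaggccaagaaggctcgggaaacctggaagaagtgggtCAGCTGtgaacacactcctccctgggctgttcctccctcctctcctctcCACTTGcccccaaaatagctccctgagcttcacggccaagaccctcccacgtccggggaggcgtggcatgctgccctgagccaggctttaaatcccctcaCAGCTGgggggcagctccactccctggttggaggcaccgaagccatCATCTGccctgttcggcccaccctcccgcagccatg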

How the data were processed

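The authors deposited the output of Agilent Feature Extraction 12.0.0.7 for each array, of which the processed signal was used. As deposited by the authors, it is an intensity from which the software has subtracted the background, and arrays have not been normalized to a common scale. The table that the authors deposited for the series holds log2 values of 25848 probes and served as an alternative. Other deposited columns, the marks for outliers and for signal well above background, are yes-or-no values. Here log2 of the processed signal was taken, spots marked as outliers were left out, spots of a probe were averaged, and the 75th percentile over all probes of each array was subtracted. RefSeq accessions without versions, matched to a gene table of GRCr8 for names only, named 21109 probes (46.3%). Of a gene's probes, the brightest by its mean over all arrays was used.

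All 12 arrays entered 1 limma 3.58.1 fit in R 4.3.3 with a mean for each group, moderated by eBayes, and p-values were adjusted by Benjamini-Hochberg. The fit was tested on simulated data, and no value given here rests on that test. Of the 24278 tested probes, 21200 (87.3%) were well above background on all arrays. The members and lists were chosen with earlier results of these data known. Named genes were all members, the genes of each list past the threshold with GR24 or between the stilbenes (at most 10, by size), the 5 most like *Ckm*, and the markers. Of the 19 list genes so chosen, 16 are shown, while counts and medians cover the whole lists. Lists were described by counts and medians, without a set test.

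The labels number the replicates 1 to 3 in each group, and the series text tells of 3 independent experiments. Replicates 1 and 2 lay on slide 1 and replicate 3 on slide 2. Deviations from the group means correlated at 0.191 to 0.744 in all 18 pairs of arrays with the same number. These pairs had 0.191 to 0.469 on slide 1 and 0.637 to 0.744 on slide 2. Pairs with different numbers correlated at 0.222 to 0.475 on the same slide and at -0.663 to -0.324 on different slides. The correlations thus do not tell pairing by number apart from a shared slide. Each slide holds every group, so a block for replicate or slide changes the error and not the fold change.

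The alternatives were quantile normalization, normexp (offset 50) with either normalization, computed from the median signal and median local background because the files hold no mean signal, the deposited table, other filters, the percentile over probes well above background on all arrays, only the 6 arrays compared, replicate or slide as a block, each slide alone, eBayes with trend and robust settings, outlier spots kept, the mean over a gene's probes, and each array left out. The percentile over all spots was added after seeing the data.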

Additional observations from a re-analysis of the deposited data

How the results depend on the processing

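Over the alternatives, 989 values of the 8 tested genes neither lost nor gained a call, 35 lost a call and 10 gained one. A further 16 from slide 2 alone, where nothing could be tested, differed by more than the residual SD. Values of slide 2 that differed by less are among the 989. The 989 are not limited in size, and *Pygm* with GR24 went from -1.32 to as little as -0.63 without losing its call. None of the called values changed sign. The calls of *Ckm*, *Ckmt2* and *Ampd1* with GR24 and resveratrol, of *Ampd1* with pinosylvin, of *Gbe1* with resveratrol and of *Pygm* and *Ak1* with GR24 were kept under every alternative with a test. The lost calls concern *Phka1*, *Gys1*, *Pygm* with resveratrol and *Ak1* against pinosylvin. Near background the size of a change differed after normexp, which also used another signal and an offset. The background correction alone was not tested.

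The number of the 8 genes called with pinosylvin was 2, and it was 1 with no filter on dim probes, 1 with only the 6 arrays, 4 with the replicate block and 4 with the slide as a block. Probes called with pinosylvin were 4019, and 2409 with no filter, 2479 with only the 6 arrays, 6946 with the replicate block and 7074 with the slide as a block. With resveratrol they were 4123, and 2680, 6768 and 6869 with no filter and with either block. Between pinosylvin and resveratrol they were 3528, and 1975, 6323 and 6444, and 2148 to 2718 with single arrays left out. The blocks remove a spread shared by arrays, no filter adds dim probes to the adjustment, and fewer arrays leave fewer degrees of freedom. The replicate block changed no other call of the 8 genes. Among the 19 named list genes it ended 0 calls and added some, in comparisons that involve a stilbene.

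With the percentile over all spots, GR24 against resveratrol had 8707 probes higher and 4875 lower, where the percentile over probes gave 6662 and 5810, and the median of all tested probes moved from 0.02 to 0.14. GR24 against the control had 9223 higher and 5357 lower with the percentile over all spots, instead of 7658 and 6195. Against pinosylvin it had 8642 and 5587 with that percentile, instead of 7193 and 6497. None of the called values of the 8 genes or the 19 list genes changed sign with the percentile over all spots. Counts in the lists were less stable with the stilbenes. For pinosylvin, the creatine and adenine nucleotide list had 0 to 5 calls over the alternatives (1 as reported) and the glycogen list 3 to 10 (8). For resveratrol the glycogen list had 2 to 9 (5). Between pinosylvin and resveratrol the lists had 1 to 4 (1) and 1 to 5 (2). The cause was not tested.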
